A study of Mus musculus with 3 samples.

Results

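The suppressor of cytokine signaling (SOCS) family comprises *Cish* and *Socs1* to *Socs7*, and its 8 genes were described here among 26840 genes with a symbol on a mouse expression array. The rule that selects them uses gene names and no measured value, and all 8 were represented, by 17 probes in total. The RNA came from RAW cells, a mouse macrophage line, and was labelled with Cy3 for SurePrint G3 Mouse GE arrays. There was 1 array for each of 3 conditions, so no replicate check, test or p-value can be given. In the LPS group the macrophages received only LPS, the TLR4 agonist from bacterial outer membranes, at 50 ng/mL. In the CRL1505 + LPS group they were first exposed for 24 h to *Lacticaseibacillus rhamnosus* CRL1505, and in the CRL1506 + LPS group to *Lactiplantibacillus plantarum* CRL1506, both at 50000000 cells/mL, and were washed before LPS. The study's design text gives 12 h of LPS and the sample descriptions give 3 h. Cells without LPS were not analysed here, and every value therefore compares macrophages that all received LPS.

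SOCS proteins are the classical feedback inhibitors of cytokine signaling. Cytokine receptors activate Janus kinases (JAK), which phosphorylate STAT transcription factors, and STATs in turn induce several of the SOCS genes. Each SOCS protein carries an SH2 domain, which binds phosphotyrosine, and a SOCS box, which recruits elongins B and C and the scaffold cullin 5 to form a ubiquitin ligase. SOCS1 and SOCS3 also hold a short region that inhibits the kinase itself, and in macrophages they restrain the responses to interferons and to IL-6, respectively, as well as signaling downstream of LPS. CIS (the product of *Cish*) and SOCS2 are known as targets of STAT5, while SOCS4 to SOCS7 are better known from growth factor and insulin signaling.

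The upstream sequences of *Socs1* and *Socs3* are shown because both genes were at least 2-fold apart between the strains under every normalization tried, and a window of *Cish* is shown because it was too. RefSeq promoters (GRCm38.p6) were found for 4 of the 8 genes, namely *Cish*, *Socs1*, *Socs3* and *Socs4*. Capitals mark matches on either strand to TTCNNNGAA, the gamma-activated site that STAT dimers bind, or to 2 copies of GAAA separated by any 2 bases, the core of the interferon-stimulated response element. The *Socs1* bases lie at chr16:10785537-10785786, minus strand, and the *Socs3* bases at chr11:117969367-117969616, minus strand. Each holds the 250 bases before the annotated start. The *Cish* window has 30 bases at chr9:107296654-107296683, plus strand, across the annotated start.
Socs1: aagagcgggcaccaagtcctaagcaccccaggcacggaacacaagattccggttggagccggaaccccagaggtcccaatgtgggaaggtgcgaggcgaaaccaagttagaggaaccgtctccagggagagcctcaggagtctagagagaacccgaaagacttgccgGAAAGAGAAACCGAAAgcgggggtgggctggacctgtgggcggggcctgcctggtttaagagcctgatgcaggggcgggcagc
Socs3: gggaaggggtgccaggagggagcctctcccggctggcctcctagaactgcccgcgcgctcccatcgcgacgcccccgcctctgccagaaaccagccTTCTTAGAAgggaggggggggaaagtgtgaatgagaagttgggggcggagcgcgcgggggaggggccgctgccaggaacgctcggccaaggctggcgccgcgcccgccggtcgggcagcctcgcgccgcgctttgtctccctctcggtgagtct
Cish: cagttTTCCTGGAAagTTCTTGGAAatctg
*Socs1* held 2 overlapping matches to the interferon element, which began at -83 and -77 from the start, and no match to the gamma-activated site. *Socs3* held 1 gamma-activated site at -154, and *Cish* held 2, at 0 and 11. The *Socs4* promoter held neither. Of 32851 RefSeq promoters of the same length, 300 bases with 50 after the start, 8.30% held a gamma-activated site and 3.44% an interferon element. These matches describe letters and were not tested as binding sites.

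The arrays differed in quality in ways that touch the values below. One slide, scanned in one run, carried the arrays of LPS and of CRL1506 + LPS. CRL1505 + LPS differed from them in slide, scan run or both. Strain and this difference cannot be told apart wherever CRL1505 + LPS is compared. Between 48.5% and 55.3% of the gene spots were well above background, the lowest share being that of CRL1505 + LPS, and no spot was saturated. All 9 macrophage markers were detected on the 3 arrays, and their summed level ranged only from 9.14 to 9.45 on the log2 scale. Among markers of other cells, 3 of 4 T cell and 3 of 4 neutrophil markers were above background on each array, with summed levels of 1.42 to 1.55 and of 0.79 to 1.65. Of the B cell, dendritic cell, fibroblast and epithelial markers, *Ms4a1*, *Flt3*, *Zbtb46*, *Col1a1* and *Epcam* were above background on at least 1 array. The cells were a macrophage line, and the part of these signals in the SOCS values was not tested.

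Levels are given as the log2 signal relative to the 75th percentile of the same array, and they are compared only within a probe. Where a gene had several detected probes, their log2 ratios had a median SD of 0.23, 0.21 and 0.32 for CRL1505 + LPS over LPS, CRL1506 + LPS over LPS and CRL1505 + LPS over CRL1506 + LPS, respectively. Repeated spots of a probe differed less, with median SDs of 0.048, 0.043 and 0.047. Both are errors within an array and hold no biological variation. Because the ratios to LPS share the LPS array, they are given side by side and not as separate evidence.

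*Socs1* and *Socs3*, the inhibitors of the kinases, were both highest in CRL1505 + LPS. The level of *Socs1* was 1.80 in LPS, 3.34 in CRL1505 + LPS and 2.10 in CRL1506 + LPS. CRL1505 + LPS therefore stood alone at the top, 2.91-fold above LPS (log2 ratio 1.54) and 2.35-fold above CRL1506 + LPS (log2 ratio 1.24). The log2 ratio of CRL1506 + LPS over LPS was 0.30, against an SD between probes of 0.21. The level of *Socs3* was 5.33 in LPS, 6.81 in CRL1505 + LPS and 4.84 in CRL1506 + LPS. *Socs3* thus lay above LPS with one strain and below it with the other. It was 2.80-fold higher than LPS in CRL1505 + LPS (log2 ratio 1.48), 1.40-fold lower in CRL1506 + LPS (log2 ratio -0.49), and 3.92-fold apart between the strains (log2 ratio 1.97). Of all genes, 2.54% were at least as far toward CRL1505 + LPS as *Socs3*. Each of the 2 genes had 1 probe, at chr16:10783951-10784010 for *Socs1* and chr11:117827480-117827539 for *Socs3* (mm9, minus strand), so no second probe of the same gene can be set beside it.

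**Figure D1:**
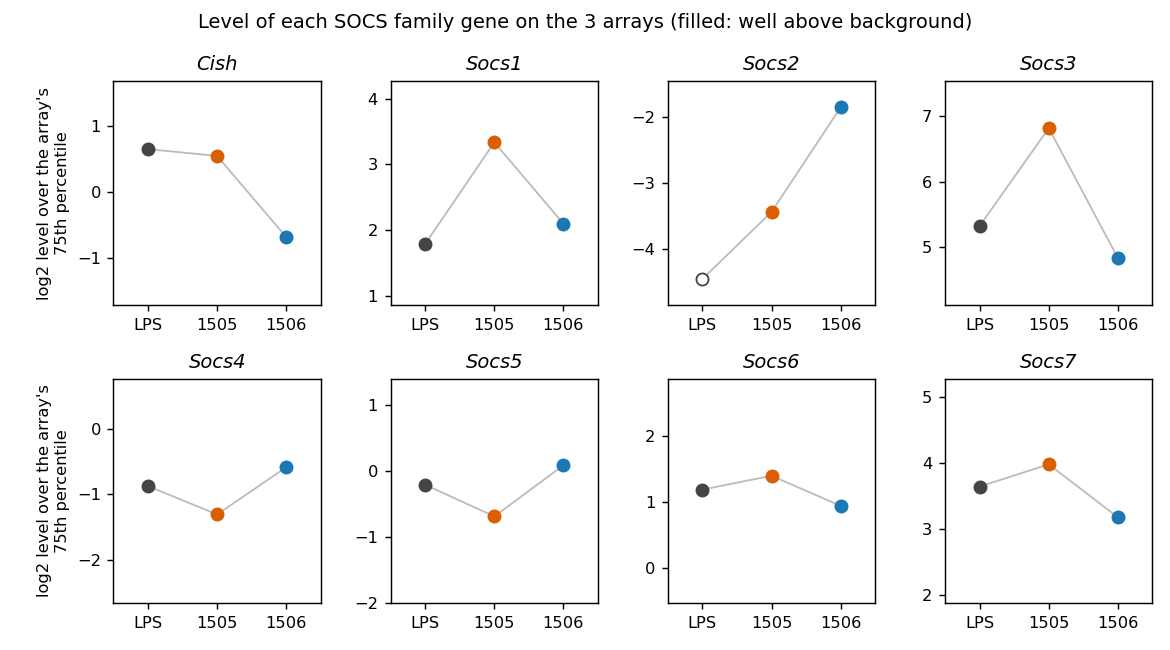
Level of the probe that stands for each SOCS family gene (y axis, log2 relative to the array's 75th percentile; each panel spans the same range of log2 units) on the arrays of LPS, CRL1505 + LPS and CRL1506 + LPS (x axis), with 1 array each and no error bar. *Socs1* and *Socs3* peak with CRL1505, *Cish* is lowest and *Socs2* highest with CRL1506, and the open point of *Socs2* was not well above background.

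*Cish* and *Socs2* are both known as STAT5 targets. CRL1506 + LPS was the lowest array for *Cish*. It was the highest for *Socs2* only by 1 dim probe with an uneven spot, which a second probe of that transcript did not repeat. The level of *Cish* was 0.66 in LPS, 0.55 in CRL1505 + LPS and -0.68 in CRL1506 + LPS. CRL1506 + LPS was the low array, 2.52-fold below LPS (log2 ratio -1.33) and 2.35-fold below CRL1505 + LPS. Only 2.09% of all genes were at least as far below LPS. The difference between CRL1505 + LPS and LPS (log2 ratio -0.10) was within the SD between probes. *Cish* also had 1 probe (chr9:107204196-107204255, mm9, plus strand).

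The signal of *Socs2* was low on every array. Its brightest probe (chr10:94875066-94875125, mm9, minus strand) gave a signal of 33.9 in LPS, which did not exceed background clearly, 47.7 in CRL1505 + LPS and 193.7 in CRL1506 + LPS. Relative to the 75th percentile these are levels of -4.45, -3.44 and -1.85, with CRL1506 + LPS highest. Since LPS gives only a bound, the ratio of *Socs2* to LPS was at least 2.02-fold with CRL1505 and at least 6.08-fold with CRL1506, and CRL1505 + LPS was 3.00-fold below CRL1506 + LPS. The bound with CRL1505 passed 2-fold in only 3 of 8 other normalizations, where its log2 value ranged from 0.56 to 1.39. This pattern rests on 1 uneven spot. In CRL1506 + LPS the mean pixel of the spot was 248.8 and the median pixel 192.5, a gap of 0.37 on the log2 scale. The log2 bound with CRL1506 was 2.60 in the main setting and 1.26 after normexp, with a constant of 50 added, and quantile normalization of mean pixels. It was 0.88 in the deposited log2 table, which follows median pixels after the same steps. Several steps differ between these settings, and the cause of the fall was not tested. A second probe of the same transcript, 402 bases away, gave signals of 24.5, 29.3 and 20.99 and was above background on no array. The remaining 2 *Socs2* probes were not above background either.

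Of the members tied to growth factor signaling, *Socs4* to *Socs7*, none was 2-fold from LPS or between the strains. Of all genes, 9.93% were higher and 8.41% lower with CRL1505, 5.67% and 3.53% with CRL1506, and 9.02% and 7.47% between the strains. Having none among so few genes does not set these members apart. *Socs7* reached a log2 ratio of 1.30 between the strains when arrays were shifted by their medians. *Socs5*, which is known to promote turnover of the EGF receptor, had levels of -0.21 in LPS, -0.69 in CRL1505 + LPS and 0.08 in CRL1506 + LPS. Its log2 ratio between the strains was -0.78, lower with CRL1505. *Socs7*, whose protein binds insulin receptor substrates, had levels of 3.64, 3.98 and 3.18 in the same order, and a log2 ratio between the strains of 0.80, higher with CRL1505. In the main setting *Socs5* and *Socs7* were thus apart by similar amounts in opposite directions, and each had 1 probe. The amounts changed with the scaling. Their log2 ratios between the strains were -0.28 and 1.30 with the median shift. With the percentile over probes detected on all arrays they were -0.98 and 0.60.

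*Socs6*, whose protein binds the receptor tyrosine kinase KIT, had 3 detected probes that went the same way. Its log2 ratios ranged from 0.21 to 0.42 for CRL1505 + LPS over LPS, from -0.35 to -0.25 for CRL1506 + LPS over LPS, and from 0.46 to 0.72 between the strains. Its other 2 probes were not above background. The 3 probes of *Socs4* disagreed. The brightest gave log2 ratios of -0.43 for CRL1505 + LPS over LPS and -0.72 between the strains, whereas the others gave 0.30 and 0.39, and 0.23 and 0.52. The direction of *Socs4* with CRL1505 is therefore not settled by these arrays, and the mean over its probes was 0.09 for CRL1505 + LPS over LPS.

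**Figure D2:**
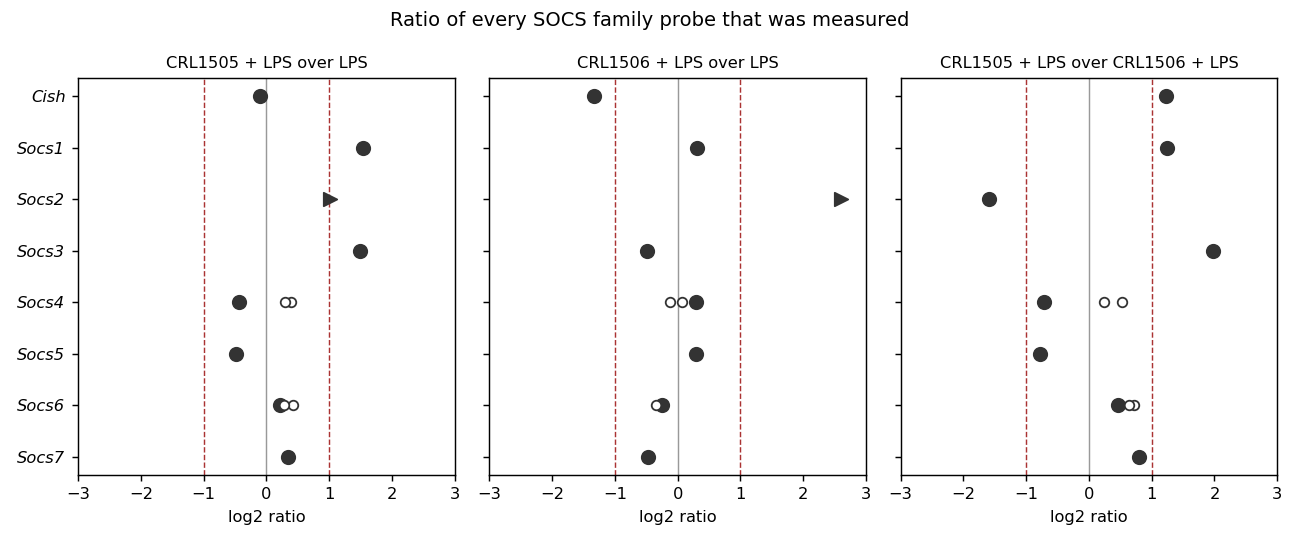
Log2 ratio (x axis) of every SOCS family probe above background on at least 1 of the compared arrays, by gene (y axis), in the 3 comparisons. Filled points stand for the gene, open circles are its other probes, triangles are lower bounds, and dashed lines mark 2-fold. The *Socs6* probes lie together, while those of *Socs4* fall on both sides of 0.

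Counted over the family, 3 of 8 genes were at least 2-fold higher in CRL1505 + LPS than in LPS (*Socs1*, *Socs2*, *Socs3*) and 0 lower, where 9.93% of all 15603 genes compared were higher and 8.41% lower. The count was 2 in 5 of 8 other normalizations, those in which *Socs2* fell short of 2-fold. With CRL1506, 1 was higher (*Socs2*) and 1 lower (*Cish*), where 5.67% of all genes were higher and 3.53% lower. *Socs2* entered both counts as a bound, from a probe not well above background in LPS. With CRL1506, 0 were higher in the deposited log2 table, without uneven spots, and with only probes above background on all arrays. Between the strains, 3 were higher with CRL1505 (*Cish*, *Socs1*, *Socs3*) and 1 lower (*Socs2*), where 9.02% were higher and 7.47% lower. The median absolute log2 ratio of the family was 1.02 between the strains, against 0.42 over all genes. It was 0.46 against 0.41 for CRL1505 + LPS over LPS and 0.39 against 0.26 for CRL1506 + LPS over LPS. With 8 genes and no replicates these figures are a description.

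The size of the ratios followed the normalization more closely for *Socs2* than for the others. Over 8 other normalizations the log2 ratio of *Socs3* between the strains ranged from 1.69 to 2.47, that of *Socs1* from 1.03 to 1.73 and that of *Cish* from 1.03 to 1.73, so each stayed past 2-fold. That of *Socs2* ranged from -1.79 to -0.32 and passed 2-fold in 5 of 8. For CRL1505 + LPS over LPS, *Cish* changed sign in 1 of 8 and *Socs6* in 1 of 8.

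**Figure D3:**
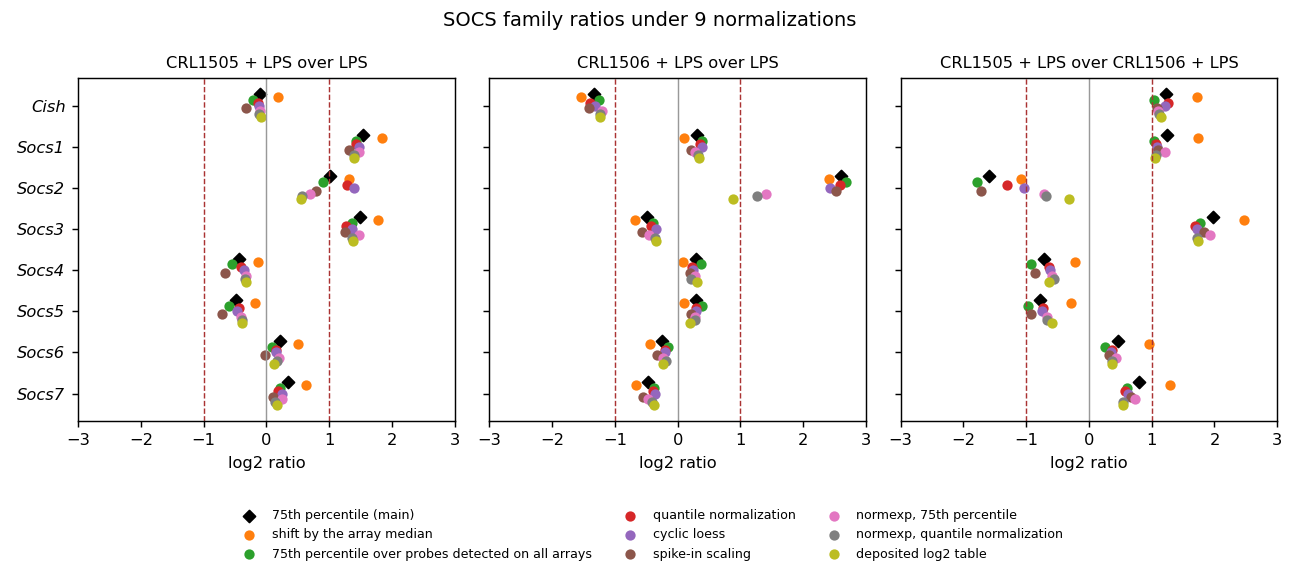
Log2 ratio (x axis) of each SOCS family gene (y axis) under the main 75th percentile shift (black diamonds) and 8 other normalizations (coloured points) in the 3 comparisons, with dashed lines at 2-fold. The points of *Socs1*, *Socs3* and *Cish* between the strains all lie beyond 2-fold, while those of *Socs2* spread from -1.79 to -0.32.

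The genes around the family were taken from 9 lists of the JAK-STAT pathway with 142 entries on the array. In CRL1505 + LPS over LPS, 18 of the 112 compared were at least 2-fold higher and 3 lower, where the shares of all genes were 9.93% and 8.41%. In CRL1506 + LPS over LPS, 11 of 116 were higher and 3 lower, against 5.67% and 3.53% of all genes. Between the strains 23 of 116 were higher with CRL1505 and 7 lower, against 9.02% and 7.47%. The 11 higher with CRL1506 and the 7 lower between the strains include *Il2* and *Asb10*. Both were above background only in CRL1506 + LPS and entered as bounds. The shares of all genes were counted by the same rule. The balance moved with the scaling. When arrays were shifted by their medians, 8 were higher and 8 lower with CRL1506, and between the strains 42 were higher and 3 lower, where the shares of all genes were 23.6% and 2.91%. With the percentile taken over detected probes, 15 were higher and 9 lower between the strains, against 6.53% and 11.3% of all genes. In the main setting the median log2 ratios of the lists were 0.09 for CRL1505 + LPS over LPS, -0.12 for CRL1506 + LPS over LPS and 0.22 between the strains. The medians over all genes were 0.01, -0.06 and 0.03 in the same order.

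Of the cytokines that induce SOCS genes, 8 of 14 were at least 2-fold higher in CRL1505 + LPS than in LPS, where 9.93% of all genes were, and 5 of 15 in CRL1506 + LPS, where 5.67% of all genes were. The list had 27 cytokines on the array, and the rest could not be compared. The 5 include *Il2*, a bound of at least 2.57-fold from a probe above background only in CRL1506 + LPS. No cytokine was lower in either comparison. Over the other normalizations 7 to 11 and 3 to 5 were higher, with 1 lower at most with CRL1506. *Il6*, whose receptor signals through STAT3, was 19.02-fold above LPS with CRL1505 and 5.10-fold with CRL1506. *Ifnb1*, the type I interferon, was 11.04-fold and 4.97-fold above, and *Csf3*, the granulocyte growth factor, 11.6-fold and 5.09-fold. *Il19*, a relative of IL-10, showed the widest gap, at 95.2-fold and 2.34-fold. All 4 were higher with CRL1505 than with CRL1506, by 2.22-fold to 40.7-fold.

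Of the cytokine receptors, 1 of 26 was higher with CRL1505 and 1 lower (all genes 9.93% and 8.41%), 3 of 27 were higher with CRL1506 and 1 lower (5.67% and 3.53%), and 3 of 26 were higher and 3 lower between the strains (9.02% and 7.47%). Other normalizations gave 1 to 4 higher with CRL1505. *Il15ra*, the IL-15 receptor alpha chain, was 3.25-fold above LPS in CRL1505 + LPS and 1.08-fold below it in CRL1506 + LPS. *Il6ra*, the IL-6 receptor, was 2.47-fold below LPS with CRL1505. *Ifnar1* and *Il7r* were 2.59-fold and 2.37-fold above LPS with CRL1506.

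Among the Janus kinases and STATs compared, 4 of 9 were at least 2-fold higher in CRL1505 + LPS than in LPS (9.93% of all genes) and 0 of 9 in CRL1506 + LPS (5.67%). The first count was 3 in 6 of 8 other normalizations, in which *Jak3* fell short of 2-fold. *Stat3* was 3.27-fold above LPS with CRL1505 (log2 ratio 1.71) and 1.48-fold with CRL1506 (log2 ratio 0.57). *Stat2*, *Jak2* and *Jak3* had log2 ratios of 1.56, 1.53 and 1.01 with CRL1505 and of 0.53, 0.54 and -0.54 with CRL1506. *Stat5a* and *Stat5b*, which encode STAT5, had log2 ratios of 0.06 and -0.02 with CRL1505 and of -0.22 and 0.14 with CRL1506. These are RNA levels, and the activity of STAT5 was not measured.

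Of the STAT3 targets, 2 of 7 were higher with CRL1505 (9.93% of all genes, and 2 to 5 targets over the other normalizations), namely *Il1rn*, which encodes the IL-1 receptor antagonist, at 8.10-fold, and *Pim1* at 2.40-fold. *Bcl3* was 2.19-fold below LPS with CRL1506. Between the strains 4 of 7 STAT3 targets were higher with CRL1505 and none lower (9.02% and 7.47% of all genes), *Junb* among them at 2.08-fold, and the other normalizations gave 3 to 7. None of the 5 STAT5 targets passed 2-fold in any comparison, while under other normalizations up to 2 were lower with CRL1506, up to 1 lower with CRL1505 and up to 2 higher between the strains. The shares of all genes ran from 3.53% to 9.93% per direction, so having none among 5 genes does not set this list apart. The median log2 ratio of the STAT5 targets was -0.69 for CRL1506 + LPS over LPS.

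Of the 9 ubiquitin ligase partners through which SOCS proteins act, elongins and cullin 5 included, none was 2-fold from LPS or between the strains, while up to 2 passed between the strains under other normalizations. Of 15 other inhibitors of the pathway only *Usp18*, which blocks interferon receptor signaling, passed 2-fold, at 4.38-fold above LPS with CRL1505 (log2 ratio 2.13 against 0.63 with CRL1506). Other normalizations gave up to 2 inhibitors higher with CRL1505, up to 3 higher between the strains, and at most 1 lower with either strain. Of all genes, 9.93% were higher and 8.41% lower with CRL1505, 5.67% and 3.53% with CRL1506, and 9.02% and 7.47% between the strains. In lists this short, the counts of partners and inhibitors lie near those shares. Of the SOCS substrates outside the pathway, *Irs2* was 2.50-fold and 2.03-fold above LPS and *Syk* 2.40-fold and 1.82-fold, with CRL1505 and CRL1506 respectively. Among other proteins with a SOCS box, *Asb2* was 10.3-fold below LPS with CRL1505 and 3.80-fold below it with CRL1506, *Spsb4* 3.35-fold below it with CRL1505, and *Wsb1* 2.07-fold above it with CRL1506.

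**Figure D4:**
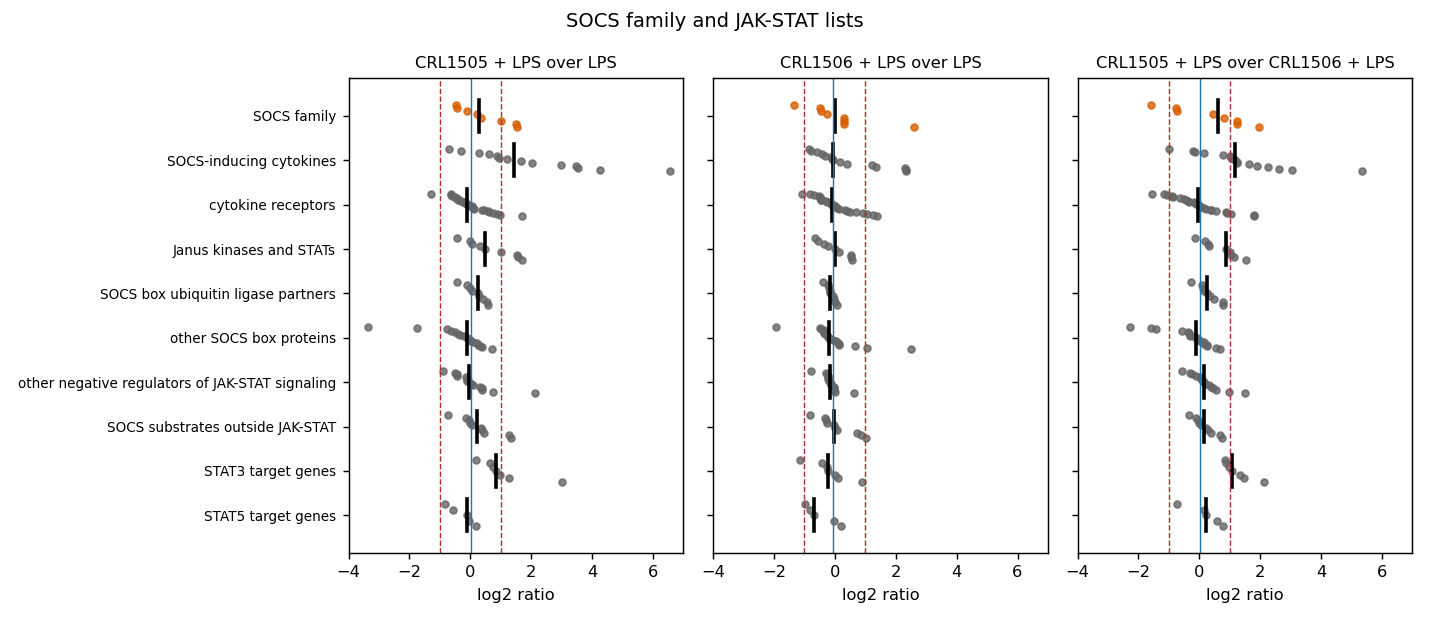
Log2 ratio (x axis) of the SOCS family genes (orange) and of the genes of the 9 JAK-STAT lists (grey, 1 row each) in the 3 comparisons. Each point is a gene, black bars are list medians, the blue line is the median of all genes and dashed lines mark 2-fold. Of the Janus kinases and STATs, 4 of 9 lie past 2-fold with CRL1505 and 0 of 9 with CRL1506.

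The genes whose log2 ratios to LPS lay closest to those of a member, by Euclidean distance over the pair of ratios, were sought among 13107 genes above background on all arrays. For *Socs1* they were *Hist2h2aa1*, *Tdrd7* and *Synj1*, at distances of 0.036 to 0.051. For *Socs3* they were *Bcorl1*, *Notch3* and *Golt1a*, at 0.027 to 0.076, and for *Cish* *Itga4*, *Nab2* and *Ccl20*, at 0.071 to 0.16. Within 0.23, the SD between probes, lay 76 genes for *Socs1*, 30 for *Socs3* and 7 for *Cish*. Likeness here covers only 3 arrays.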

How the data were processed

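RNA of RAW macrophages was measured on 3 arrays of 1 colour, with 62976 spots each. The authors deposited spot intensities of Feature Extraction (version 12.0.3.1 in the files), with background subtracted and no normalization between arrays. A log2 table deposited by the authors differed by at most 0.135 from normexp-corrected, quantile-normalized median pixel signals.

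From each log2 processed signal, the 75th percentile over gene spots of that array was subtracted. Outlier spots (241 to 467 per array) were left out, and repeated spots were averaged. The brightest probe stood for a gene, and probes above background on neither array were left out. Where 1 side was not above background, the ratio is a lower bound against the higher of the lowest detected signal and the probe's own. Genes were counted at 2-fold. Precision is limited by 1 array per condition, and the study's t-test could not be run.

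The members and lists were chosen with earlier results of these data known. All 8 members are named, and from each list up to 4 genes that were 2-fold apart in a comparison and above background on all arrays, by largest ratio to LPS. *Stat5a* and *Stat5b* were added after their values were seen, and some pathway genes are not reported here. The 15 alternatives concern scaling, background correction, filters, probe choice, uneven spots and the threshold. Their use on the JAK-STAT lists was chosen after seeing the data. Python 3.11.15 with pandas 2.3.3 and R 4.3.3 with limma 3.58.1 were used, and the procedure was tested on simulated data. Probe positions are those of the files (mm9), and promoters are on GRCm38.p6.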

Additional observations from a re-analysis of the deposited data

Results flagged for a closer look

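*Socs3* was flagged because its ratios to LPS had opposite signs with the strains under the main setting and each of 8 other normalizations. Its log2 ratio was 1.48 for CRL1505 + LPS over LPS and -0.49 for CRL1506 + LPS over LPS. Both exceeded the SD between probes. This was not particular to *Socs3*, since *Socs4*, *Socs5* and *Socs7* also had opposite signs under all of these settings. Their log2 ratios, in the same order, were -0.43 and 0.29, -0.48 and 0.30, and 0.34 and -0.47. None of those passed 2-fold, and the probes of *Socs4* disagreed. The differences were not tested, since there was 1 array per condition, and strain cannot be told apart from slide or scan run.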

How the results depend on the processing

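Of 306 values of single SOCS genes under other settings, 276 moved by less than the SD between probes, 30 moved by more, and 0 of those past 2-fold changed sign. Shifting by the array median raised the median log2 ratio of the family to 0.57 for CRL1505 + LPS over LPS and to 1.13 between the strains and the median of all genes to 0.33 and 0.57. The count of SOCS genes 2-fold from LPS with CRL1506 was 1 in the deposited log2 table, with only probes above background on all arrays, and without uneven spots. Under the last 2 settings, which drop *Socs2*, the family median was -0.25. For the JAK-STAT lists the count with CRL1506 was 9 of 116 under normexp with the 75th percentile. Of these, 6 were higher and 3 lower, against 2.86% and 1.80% of all genes. Without the filter on dim probes the list count was 34 with CRL1505 and 23 with CRL1506. At 1.5-fold, 7 SOCS genes were apart between the strains, and the lists held 43, 32 and 50 genes for CRL1505 + LPS over LPS, CRL1506 + LPS over LPS and between the strains. At 4-fold the SOCS counts were 0, 1 and 0, and the list counts 9, 4 and 6. The shares of all genes at 1.5-fold, at 4-fold and without the filter are not given here. Those counts therefore describe the settings and not a trait of the family or the lists. The cause of these shifts was not tested beyond the loss of *Socs2*. No paired analysis was possible because each condition had 1 array. Low signal limits *Socs2* most, as its LPS value is only a bound.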
